A study of Homo sapiens with 6 samples.

Results

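Cells of H226, an established human line that the study describes as lung squamous carcinoma, were profiled by RNA-seq after transient transfection with an antisense oligonucleotide. The 10 genes described here encode subunits of the transcription factor NF-κB, its inhibitors and products of its feedback and target genes. The members were chosen by name, as *NFKB1*, *NFKB2*, *RELA*, *RELB*, *NFKBIA*, *NFKBIE*, *TNFAIP3*, *TRAF1*, *BIRC3* and *ICAM1*, and all 10 were found among the 17222 gene names of the count table. The comparison was between 3 libraries of cells given ASO_LINC#3 (hereafter ASO_LINC), which is directed against the long noncoding RNA *SWINGN*, and 3 libraries of cells given the control oligonucleotide ASO_CTRL, all taken 48 h after transfection. Both groups were thus transfected cells of 1 line, and the knockdown arm rests on 1 oligonucleotide sequence. The labels do not say that the replicates were separate cultures. The study's reporting form describes its experiments in general as biological triplicates, and p-values measure the spread between these libraries. The cell line is given as the labels have it, whereas the methods paragraph on this RNA-seq names BJ cells, a fibroblast line. The *SWINGN* transcript was not analysed here, and how far it was depleted is therefore not known from these values.

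NF-κB proteins are held in the cytoplasm by inhibitors of the IκB family. In the canonical pathway, receptors for interleukin-1 or tumour necrosis factor activate a kinase complex that marks the inhibitor IκBα, the product of *NFKBIA*, for degradation, and dimers of RELA with the processed *NFKB1* product enter the nucleus. In the non-canonical pathway, a subset of receptors stabilises the kinase NIK, the *NFKB2* precursor is processed, and its dimers with RELB become active. The factor induces several of its own inhibitors, among them *NFKBIA*, *NFKBIE* and *TNFAIP3*, which is the basis of its negative feedback, and it also induces *NFKB1*, *NFKB2*, *RELB*, *TRAF1*, *BIRC3* and *ICAM1*. In epithelial cells the pathway is known for inflammatory gene expression and for protection from death receptor signals.

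The start regions of the members are shown first, because a κB site near the start is the feature by which these genes are usually grouped. For 8 of the 10 members the RefSeq promoter table (GRCh38.p14, 250 bases before to 50 after the start) held 14 start sites. They were searched on both strands for an NF-κB consensus decamer. The decamer was GGGRNWYYCC, where R is A or G, N any base, W A or T and Y C or T. It was found at 6 of these 14 starts, 42.9% against 5.91% of all 35116 promoters of the same length. By gene it was found in 5 of the 8, 62.5% against 7.09% of all 27305 genes. The members were chosen by name as genes of this pathway, so these shares describe the choice and are not a result of the RNA-seq. Starts of the same gene are not independent. The promoters of *NFKB2* and *TNFAIP3*, which rose, and of *NFKBIA*, which did not pass the test, are given whole, from 5′ to 3′ on the strand of the gene, with matches in capitals. In the *NFKB2* promoter the first capitals are overlapping matches.
*NFKB2*, chr10:102394328-102394627, plus strand: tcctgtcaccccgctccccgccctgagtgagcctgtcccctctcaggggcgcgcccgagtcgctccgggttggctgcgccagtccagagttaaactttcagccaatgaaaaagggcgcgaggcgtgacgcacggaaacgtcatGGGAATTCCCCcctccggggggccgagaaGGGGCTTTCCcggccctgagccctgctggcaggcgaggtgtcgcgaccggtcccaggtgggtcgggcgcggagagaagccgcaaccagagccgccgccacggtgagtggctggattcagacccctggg
*TNFAIP3*, chr6:137867009-137867308, plus strand: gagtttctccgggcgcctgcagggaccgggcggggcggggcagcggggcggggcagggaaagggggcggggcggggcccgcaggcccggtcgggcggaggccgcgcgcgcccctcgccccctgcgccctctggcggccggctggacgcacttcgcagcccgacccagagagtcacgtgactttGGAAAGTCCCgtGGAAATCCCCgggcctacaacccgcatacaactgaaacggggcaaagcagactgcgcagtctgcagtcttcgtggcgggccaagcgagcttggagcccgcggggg
*NFKBIA*, chr14:35404700-35404999, minus strand: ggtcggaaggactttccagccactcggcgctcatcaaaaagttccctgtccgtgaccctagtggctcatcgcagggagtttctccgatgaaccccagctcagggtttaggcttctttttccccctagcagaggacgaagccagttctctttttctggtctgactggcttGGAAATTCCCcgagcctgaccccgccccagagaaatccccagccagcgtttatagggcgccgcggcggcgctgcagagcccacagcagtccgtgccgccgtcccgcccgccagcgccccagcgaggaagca
The sites of the other genes are shown with the bases around them, again with the match in capitals. They include a further start of *NFKB2*, where 1 of its 2 matches is shown.
*NFKB2*, chr10:102395669-102395708, plus strand: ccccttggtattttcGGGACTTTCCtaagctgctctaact
*NFKB1*, chr4:102501295-102501334, plus strand: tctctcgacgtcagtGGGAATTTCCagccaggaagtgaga
*BIRC3*, first match, chr11:102317270-102317309, plus strand: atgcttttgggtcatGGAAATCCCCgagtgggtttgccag
*BIRC3*, second match, chr11:102317334-102317373, plus strand: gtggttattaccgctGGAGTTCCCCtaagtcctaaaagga
*RELA*, *TRAF1* and *ICAM1* had no match in these windows. Runs that depart from the decamer at a single base were not counted, such as TGGAAATTCC in the *ICAM1* window. A κB site of another form is therefore not excluded. A match is a run of letters and was not tested for binding. It was present both in members that rose, as *TNFAIP3*, and in members that did not pass the test, as *NFKB1* and *NFKBIA*.

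The libraries held from 3686828 to 10546786 reads on genes, and the least deep was ASO_LINC replicate 3. This library also stood apart in base composition: across 12636 genes, which are not independent replicates and share each library's depth, its log2 change correlated with the GC content of the transcript at Pearson r = 0.26, against -0.21 and -0.25 in replicates 1 and 2. Of 7 squamous markers 2 had a row and 1 was tested, which edgeR and limma-voom did not call and DESeq2 did: this was *KRT5*, at 94.4 to 117 CPM in the controls and 62.6 to 77.8 CPM in ASO_LINC. *KRT6A* was at 0 to 0.0954 CPM in the controls and 0.856 to 2.06 CPM in ASO_LINC. *TP63*, *SOX2*, *KRT14*, *DSG3* and *PKP1* had no row. Of 6 simple epithelial markers 4 had a row, the keratins *KRT7*, *KRT8*, *KRT18* and *KRT19*, with a median log2 fold change of -0.41. In edgeR, DESeq2 and limma-voom 0 were called, with 2, 2 and 4 at an unadjusted p below 0.05. The groups overlapped through ASO_LINC replicate 3. In ASO_LINC replicates 1, 2 and 3 the log2 changes were -0.65, -0.81 and -0.02 for *KRT7* and -0.62, -0.53 and 0.07 for *KRT8*. They were -0.80, -0.82 and 0.05 for *KRT18* and -0.59, -0.74 and 0.08 for *KRT19*. Of the 6 mesothelial markers 2 were called, *CALB2* at -1.97 and *LRRN4* at -1.58. *UPK3B* was at -0.92, *WT1* at -0.32 and *MSLN* at 0.06, and *ITLN1* did not pass the filter on low counts. In the controls *CALB2* was at 516 to 698 CPM, *LRRN4* at 140 to 144 and *UPK3B* at 43.9 to 52.8. *WT1* was at 39.6 to 51.6 CPM there, *MSLN* at 26.8 to 30.8 and *ITLN1* at 0.688 to 1.48. The endothelial list had 1 row of 5, *KDR*, called at -1.29, and the fibroblast list 1 of 5, *COL1A1*, called at -1.36. Of 8 leukocyte markers 4 had a row and 3 were tested, of which 0 were called by any of these tools and 2, *CD68* and *ITGAX*, had an unadjusted p below 0.05 in each. *ITGAX* was at 4.65 to 6.87 CPM in the controls and 8.38 to 10.6 CPM in ASO_LINC, and *CD68* at 1.08 to 1.89 and 2.79 to 6.51 CPM (log2 fold change 1.54, edgeR adjusted p = 0.0265). The log2 fold change of *CD14* was -0.38, and *ITGAM* was at 0.572 to 2.22 CPM in all libraries. The part of these marker genes in the results was not tested. In bulk libraries fewer cells of a type and less RNA per cell cannot be told apart. *NFKB1*, *RELA*, *TNFAIP3*, *BIRC3* and *ICAM1* each overlap an annotated gene on the other strand, and since the strand setting of the counting is not known, reads of such pairs cannot be told apart either.

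After transfection of ASO_LINC all 10 members had a higher fitted level than in ASO_CTRL, and 6 of them passed the thresholds. The thresholds were an adjusted p below 0.01 (edgeR's quasi-likelihood test, adjusted over all 14660 tested genes) and a log2 fold change beyond 0.5, a rule that called 7.54% of all tested genes and 4.91% as higher. The genes called were *TNFAIP3*, *NFKBIE*, *NFKB2*, *TRAF1*, *ICAM1* and *RELA*, and those that did not pass were *NFKB1*, *NFKBIA*, *RELB* and *BIRC3*. The median log2 fold change of the members was 0.75, against 0.00 over all tested genes. In 9 of the 10 members the 3 ASO_LINC libraries lay outside the range of the 3 controls, which was the case for 36.1% of the tested genes. All 10 members passed the filter on low counts.

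**Figure D1:**
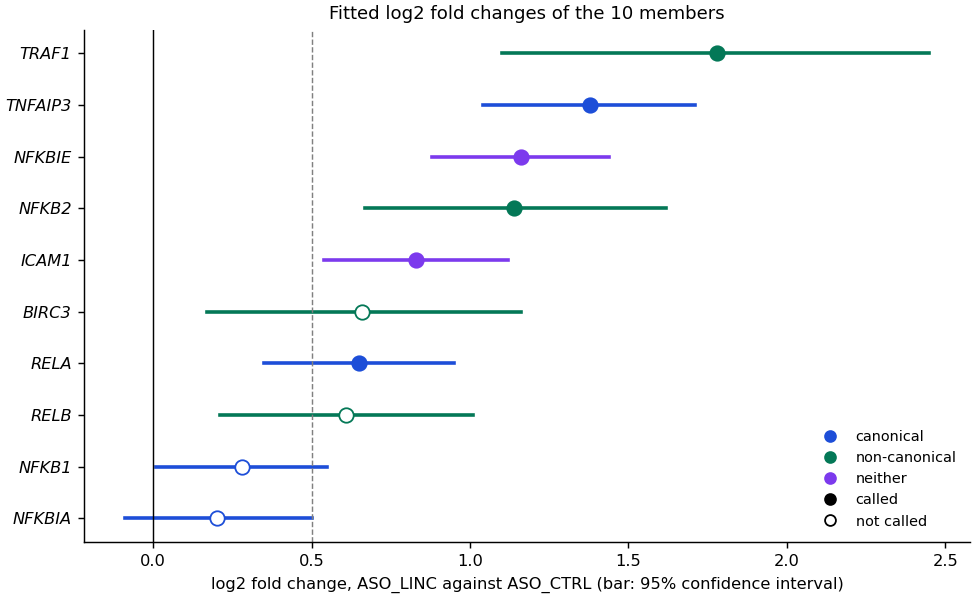
Fitted log2 fold change of each member (x axis, ASO_LINC against ASO_CTRL) with its 95% confidence interval as a bar. Filled points were called and open points were not, colours give the pathway group, and the dashed line marks 0.5. *TRAF1* has the widest interval, from 1.10 to 2.45, and that of *NFKBIA* spans 0.

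The inhibitors of the pathway differed from each other. *TNFAIP3* (chromosome 6 of GRCh37, 138188351 to 138204451, plus strand) encodes a ubiquitin-editing enzyme that terminates signalling from the receptors. It had 57.5, 46.5 and 52.7 CPM (reads scaled to a common library total, here after TMM scaling) in ASO_CTRL replicates 1, 2 and 3, and 149, 145 and 113 CPM in the ASO_LINC replicates. Every ASO_LINC library was above every control, and the lowest of the 3 was replicate 3. The mean went up from 52.2 ± 5.54 to 136 ± 19.5 CPM (SD, n = 3 per group), a log2 fold change of 1.38 ± 0.15 (SE) at an edgeR adjusted p of 0.000248. Its call held in all 6 fits that left out 1 library, with log2 fold changes from 1.31 to 1.49.

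*NFKBIE* (chromosome 6, 44225903 to 44233525, minus strand) encodes IκBε, an inhibitor that acts later than IκBα in the feedback. Its values were 45.8, 41.0 and 43.5 CPM in the controls and 97.1, 101 and 92.7 CPM in ASO_LINC. The ranges were far apart and the libraries of each group were close to each other. The log2 fold change was 1.16 ± 0.13 (SE) at an edgeR adjusted p of 0.000226, and this call too held in all 6 fits without 1 library.

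*NFKBIA* (chromosome 14, 35870285 to 35873955, minus strand), the gene of the main inhibitor IκBα, had 125, 131 and 148 CPM in the controls and 148, 144 and 174 CPM in ASO_LINC. It was the member whose groups overlapped, since ASO_LINC replicate 2 lay below control replicate 3. Its log2 fold change of 0.20 ± 0.13 (SE) at an edgeR adjusted p of 0.332 did not pass, and the 95% confidence interval ran from -0.09 to 0.50. An increase of the size measured for *TNFAIP3* or *NFKBIE* lay outside this interval, although equality of the groups was not shown.

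**Figure D2:**
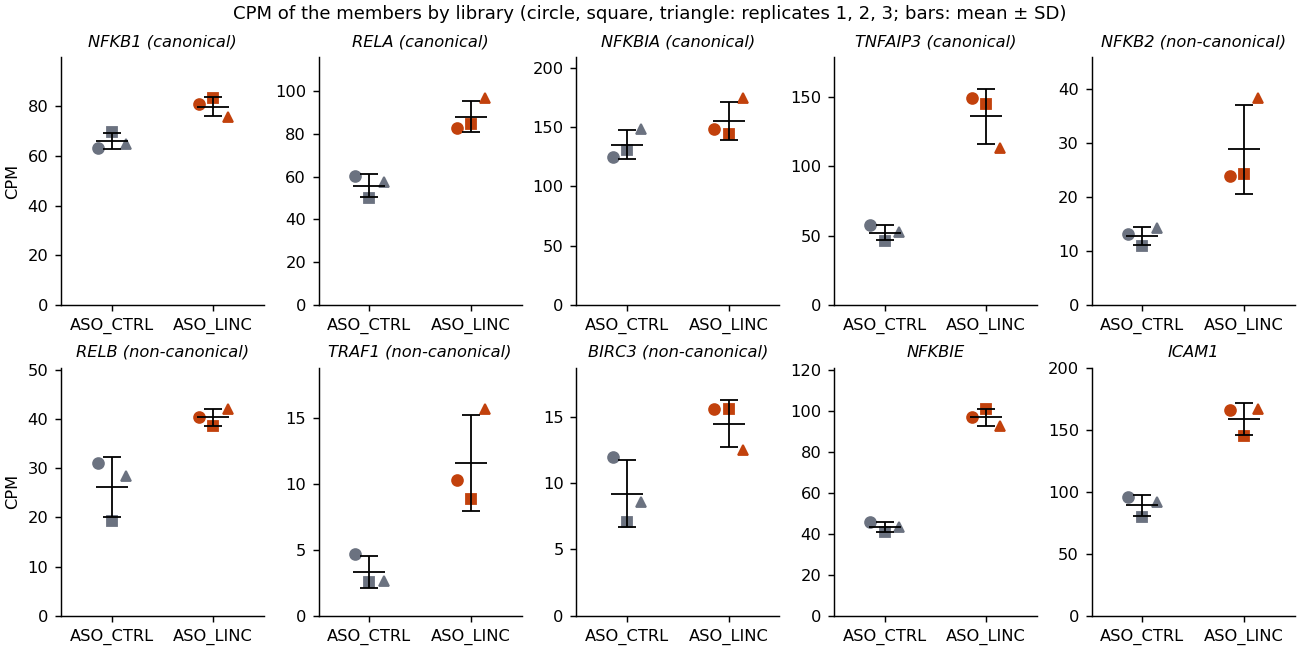
CPM of each member (y axis, from 0, with its own scale per panel) in the 3 ASO_CTRL and the 3 ASO_LINC libraries, with marker shapes for replicates 1 to 3 and bars for mean ± SD. The groups are separated in all panels except that of *NFKBIA*, and ASO_LINC replicate 3 is the highest library for *NFKB2*, at 38.2 CPM, and the lowest of its group for *TNFAIP3*, at 113 CPM.

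Among the subunits, *NFKB2* (chromosome 10, 104153867 to 104162281, plus strand), the precursor of the non-canonical dimers, changed most. It had 13.1, 11.0 and 14.2 CPM in ASO_CTRL and 23.8, 24.3 and 38.2 CPM in ASO_LINC. Replicates 1 and 2 of ASO_LINC were nearly equal, and replicate 3 was well above them. The log2 fold change was 1.14 ± 0.21 (SE) at an edgeR adjusted p of 0.00526. It was 0.90 without ASO_LINC replicate 3 and still called, whereas the call was lost without any one of the controls or without ASO_LINC replicate 1 (adjusted p from 0.0113 to 0.0262) and with glmTreat, edgeR's test for a change beyond 0.5 (adjusted p = 0.0385).

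*NFKB1* (chromosome 4, 103422487 to 103538459, plus strand), its paralog in the canonical pathway, had 63.3, 69.5 and 64.9 CPM in the controls and 81.0, 83.2 and 75.6 CPM in ASO_LINC. All 3 ASO_LINC libraries were above the controls, by little. The log2 fold change of 0.28 ± 0.12 (SE) at an edgeR adjusted p of 0.146 did not pass, and its 95% confidence interval from 0.01 to 0.55 lay below that of *NFKB2*, from 0.67 to 1.62.

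*RELA* (chromosome 11, 65421070 to 65430561, minus strand), the transactivating partner of the canonical dimer, had 60.2, 49.9 and 57.4 CPM in ASO_CTRL and 82.9, 84.7 and 96.5 CPM in ASO_LINC. The groups did not overlap. It was called with the smallest margin of the 6 members, at a log2 fold change of 0.65 ± 0.14 (SE) at an edgeR adjusted p of 0.00873. The call remained without ASO_LINC replicate 3 (adjusted p = 0.00282) and was lost without any other library (adjusted p from 0.0256 to 0.0454), with log2 fold changes from 0.58 to 0.71 over all 6 fits. It was also lost with glmTreat (adjusted p = 0.352), and with the replicate number as a block (0.0281).

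*RELB* (chromosome 19, 45504719 to 45541450, plus strand), the partner of processed *NFKB2*, had 31.0, 19.3 and 28.3 CPM in the controls and 40.3, 38.5 and 42.0 CPM in ASO_LINC. The low value of control replicate 2 set the spread of the controls, and the ASO_LINC libraries were close together. Its log2 fold change of 0.61 ± 0.18 (SE) at an edgeR adjusted p of 0.0398 was near that of *RELA* but did not pass. Over the 6 fits without 1 library it ranged from 0.45 without control replicate 2 to 0.74 without control replicate 1, and was called in 0.

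*TRAF1* (chromosome 9, 123664671 to 123691451, minus strand) encodes a signalling adaptor that joins receptor complexes of the tumour necrosis factor family, and had the largest fold change of the members. It rested on few reads, which numbered 35, 15 and 28 in the controls and 70, 52 and 58 in ASO_LINC, that is 4.71, 2.58 and 2.67 CPM against 10.3, 8.90 and 15.7 CPM. The libraries of the groups were apart, and ASO_LINC replicate 3 was again the highest. The fitted change was 3.42-fold, or 1.78 on the log2 scale (edgeR adjusted p = 0.00343), with a 95% confidence interval of 1.10 to 2.45 on that scale. Without control replicate 2 or 3 or ASO_LINC replicate 1 the adjusted p ranged from 0.0127 to 0.0260, so that the call was lost in 3 of 6 fits, as it was with glmTreat (0.0132).

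*BIRC3* (chromosome 11, 102188215 to 102210134, plus strand) encodes an inhibitor of apoptosis that adds ubiquitin chains in both branches. It had 12.0, 7.06 and 8.59 CPM in ASO_CTRL and 15.6, 15.6 and 12.5 CPM in ASO_LINC, so that control replicate 1 came close to ASO_LINC replicate 3. The log2 fold change of 0.66 ± 0.22 (SE) at an edgeR adjusted p of 0.0622 did not pass. *BIRC2*, its neighbour and paralog, named here after its values were seen, did not pass either, at a log2 fold change of 0.96 and an adjusted p of 0.0151 from edgeR.

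*ICAM1* (chromosome 19, 10381769 to 10397291, plus strand) encodes an adhesion molecule that binds leukocyte integrins. It had 95.6, 79.8 and 92.2 CPM in ASO_CTRL and 166, 145 and 167 CPM in ASO_LINC, with no overlap. The log2 fold change was 0.83 ± 0.13 (SE) at an edgeR adjusted p of 0.00210. The call was lost without control replicate 2 (adjusted p = 0.0128), control replicate 3 (0.0169) or ASO_LINC replicate 1 (0.0157) and with glmTreat (0.0625), with log2 fold changes from 0.77 to 0.90 over the 6 fits.

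The canonical members *NFKB1*, *RELA*, *NFKBIA* and *TNFAIP3* were then set beside the non-canonical members *NFKB2*, *RELB*, *TRAF1* and *BIRC3*. In each group 2 of the 4 genes were called, all of them higher. The median log2 fold change was 0.47 in the canonical and 0.90 in the non-canonical group, a difference of 0.44, and the values overlapped widely, from 0.20 to 1.38 in the former and from 0.61 to 1.78 in the latter. In ASO_LINC replicates 1, 2 and 3 taken singly the difference was 0.40, 0.38 and 0.56, and it stayed between 0.34 and 0.54 when each library was left out. Within both groups the 2 called genes were those with the larger changes, *TNFAIP3* and *RELA* in one and *TRAF1* and *NFKB2* in the other. Since the groups were given with results of these data known, no test was made over them.

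A ratio of reads within a library does not depend on how libraries are scaled, and was formed for the 2 pairs of subunits. The ratio of *NFKB2* to *NFKB1* reads was 0.206, 0.158 and 0.219 in ASO_CTRL replicates 1 to 3 and 0.294, 0.292 and 0.505 in ASO_LINC. All ASO_LINC libraries were above the controls, by 0.87 on the log2 scale, with a two-sided p = 0.1 in an exact permutation test of 3 against 3, the smallest that this size allows. The difference was 0.60 without ASO_LINC replicate 3. The ratio of *RELB* to *RELA* reads was 0.515, 0.386 and 0.493 in the controls and 0.486, 0.455 and 0.435 in ASO_LINC. Here the groups overlapped, with a difference of -0.01 (exact permutation test, two-sided p = 0.900) whose sign changed with the library left out, from -0.14 without control replicate 2 to 0.07 without control replicate 1. The ratios compare reads, not molecules, because the genes differ in length. Nor do they remove a dependence of a library on GC content, which was 61.2% for the *NFKB2* and 50.1% for the *NFKB1* transcript. ASO_LINC replicate 3, with the highest ratio of these 2 genes, had log2 changes that correlated with GC content at r = 0.26, against -0.21 and -0.25 in replicates 1 and 2. The part of GC content in the ratio was not tested.

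**Figure D3:**
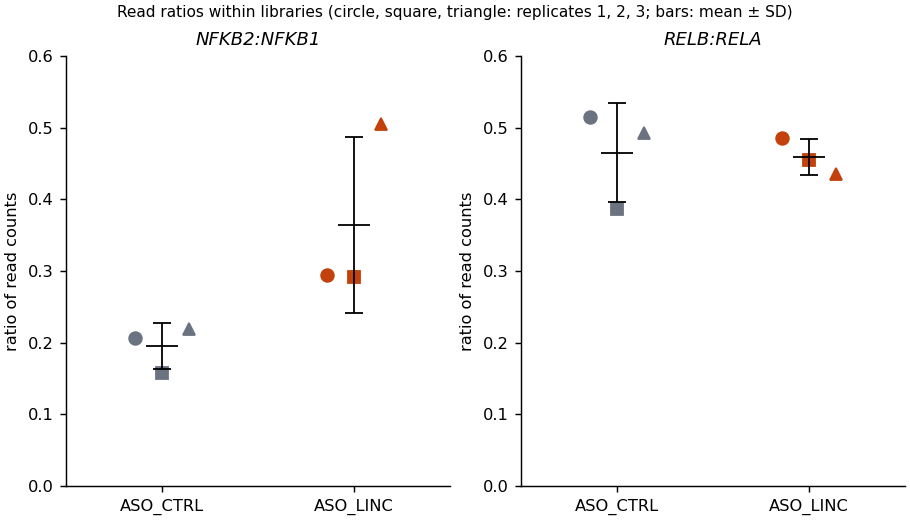
Ratio of read counts within each library (y axis, from 0) for *NFKB2* to *NFKB1* and *RELB* to *RELA*, with marker shapes for replicates 1 to 3 and bars for mean ± SD. The first ratio lies between 0.158 and 0.219 in ASO_CTRL and between 0.292 and 0.505 in ASO_LINC, and the second overlaps between the groups.

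The ASO_LINC libraries were not equally far from the controls. Relative to the mean of the controls, *NFKB2* changed by 0.89, 0.92 and 1.57 on the log2 scale in replicates 1, 2 and 3, and *TRAF1* by 1.60, 1.39 and 2.19. *TNFAIP3* went the other way, at 1.51, 1.47 and 1.12, as did *BIRC3*, at 0.77, 0.77 and 0.46. The transcripts of the members range in GC content from 35.8% for *BIRC3* to 64.9% for *RELB*, with 61.2% for *NFKB2* and 49.3% for *TNFAIP3*. When the dependence on GC content and length was removed from every library, a correction added after seeing the data, the changes of *NFKB2* were 0.99, 1.09 and 1.25, those of *BIRC3* 0.49, 0.45 and 0.56, those of *NFKBIE* 1.28, 1.39 and 0.79 and those of *RELB* 0.85, 0.85 and 0.36. The replicates thus came nearer to each other for *NFKB2* and *BIRC3* and moved apart for *NFKBIE* and *RELB*. The same 6 members were called after the correction, and the log2 fold changes of the 10 genes ranged from 0.20 for *NFKBIA* to 1.70 for *TRAF1*.

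**Figure D4:**
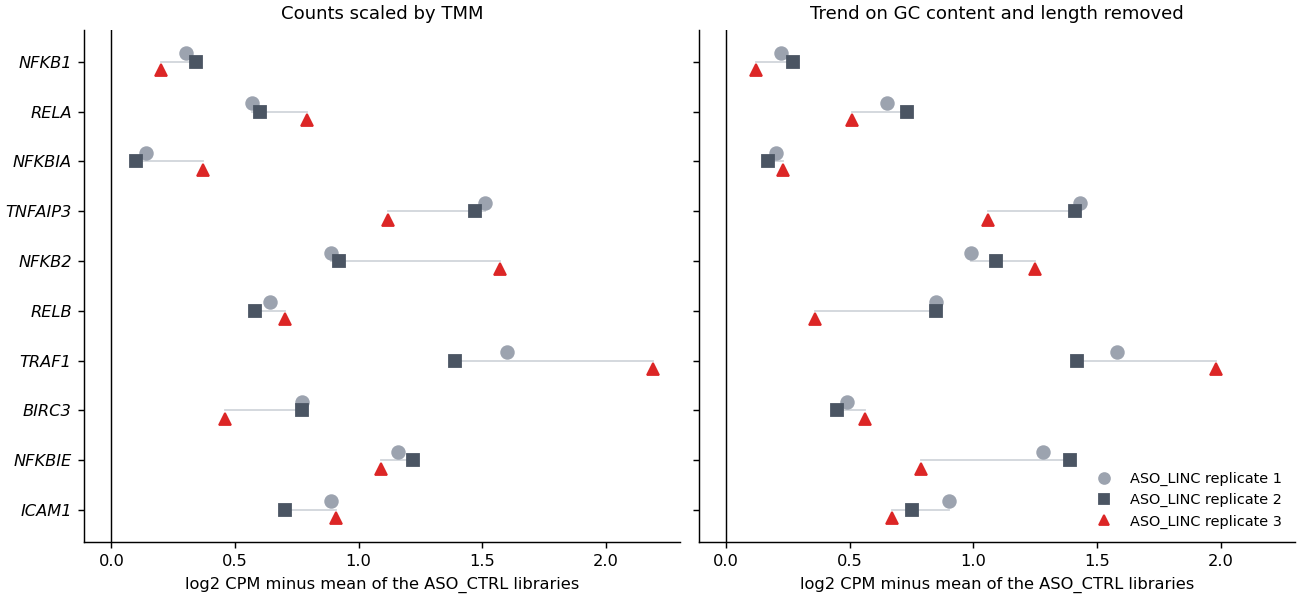
Log2 change of each member in ASO_LINC replicates 1, 2 and 3 against the mean of the controls (x axis), with TMM scaling alone on the left and with the dependence on GC content and length removed on the right. All points are above 0. Replicate 3 is apart for *NFKB2* on the left, at 1.57, and at 1.25 is nearer to the others on the right.

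The other genes of the pathway were looked up by role, in lists of 87 names of which 76 were tested. In all 21 were called, 18 higher and 3 lower, which is 27.6% of the tested names, against 7.54% of all tested genes. The 21 include *PLAU*, *BCL2A1*, *MMP9* and *TNFSF13B*, which needed the ASO_LINC libraries to pass the filter on low counts. The remaining proteins of the NF-κB and IκB families had 0 of 6 genes called in edgeR, with a median log2 fold change of 0.01, and *BCL3* and *NFKBIZ*, nuclear members of the IκB family, were at -0.11 and 0.14. DESeq2 and limma-voom also called 0 of the 6. At an unadjusted p below 0.05 there was 1, *REL*, in edgeR and in limma-voom, and 0 in DESeq2, and the log2 fold change of *REL*, the subunit c-Rel, which is named after its values were seen, was 0.59 in edgeR.

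Of 23 kinases and adaptors 1 was called, 4.35% against 7.54% of all tested genes. This was *IRAK2*, a kinase-like adaptor of interleukin-1 receptors, which had 21.0, 17.2 and 22.1 CPM in the controls and 78.9, 77.4 and 59.1 CPM in ASO_LINC, and the median of the list was 0.23. Genes named after their values were seen did not pass: *MAP3K14*, which encodes NIK, was at 0.31. *CHUK*, *TRAF2* and *TRAF3*, which encode a kinase and adaptors that act in both branches, were at 0.05, 0.31 and 0.03. *IKBKB* and *TRADD* were at 0.59 and 0.62 (edgeR adjusted p = 0.0193 and 0.0401). Of the 23 genes 19 had a higher and 4 a lower fitted level, where 7292 of all 14660 tested genes were higher.

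Of 8 tested receptors 3 were called, 37.5% against 7.54% of all tested genes. *TNFRSF1B*, a tumour necrosis factor receptor, rose by 1.12 on the log2 scale, from 5.66, 5.85 and 5.25 CPM to 11.8, 12.2 and 12.5 CPM. *IL1RAP*, the shared chain of interleukin-1 receptors, rose by 1.03, and *IL1R1*, the ligand-binding chain, went down from 13.7, 17.9 and 15.7 CPM to 5.73, 6.16 and 6.51 CPM, a log2 fold change of -1.37 (adjusted p = 0.00114 in edgeR). *LTBR* and *TNFRSF1A*, named after their values were seen, are the receptors for lymphotoxin and tumour necrosis factor and were not called, at -0.13 and -0.07.

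Of 5 tested ligands 4 were called, 80.0% against 7.54% of all tested genes. *IL1B* and *IL1A*, the ligands of the interleukin-1 receptor, rose by 2.28 and 2.58 on the log2 scale. *TNFSF13B*, the ligand BAFF, rose by 2.19, from 9, 7 and 12 reads in the controls to 39, 43 and 10 in ASO_LINC. It passed the filter on low counts through ASO_LINC alone, where it is high, and is counted in the 80.0%. *LTB*, a membrane ligand of the lymphotoxin β receptor, went the other way, from 8.22, 6.54 and 8.01 CPM to 1.91, 1.88 and 4.07 CPM (log2 fold change -1.63, adjusted p = 0.00511 in edgeR). *TNF* had from 0 to 6 reads in each library and did not pass the filter on low counts.

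Among 14 ubiquitin editors and other inhibitors 2 were called, 14.3% against 7.54% of all tested genes, and the median of the list was 0.55. *TNIP1*, which binds the *TNFAIP3* product, had 109, 98.6 and 101 CPM in the controls and 205, 201 and 276 CPM in ASO_LINC, a log2 fold change of 1.14 (adjusted p = 0.000705 in edgeR). *SQSTM1*, a selective autophagy receptor that also scaffolds this pathway, rose by 0.73.

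Of 20 further target genes 11 were called, 10 higher and 1 lower, with a median of 0.84. This is 55.0% of the list, against 7.54% of all tested genes. The count includes *PLAU*, *BCL2A1* and *MMP9*, which needed the ASO_LINC libraries, where they are high, to be tested at all. The genes with the smallest p were *CSF2*, *PTX3*, *CCL2*, *MMP9*, *PLAU* and *CXCL1*. *CSF2*, a myeloid growth factor, was at 4.95 on the log2 scale and *PTX3*, a secreted pattern recognition protein, at 2.36. *MMP9*, a matrix protease, was at 2.73 and *CXCL1*, a neutrophil chemokine, at 1.51. *CCL2*, the monocyte chemokine, was the one called lower, at -1.38. Fitted levels were higher in 16 of the 20 targets and lower in 4. *SOD2* and *TNFAIP2*, named after their values were seen, were at -0.53 and -0.46 and did not pass (edgeR adjusted p = 0.0162 and 0.0519). *PLAU*, a plasminogen activator, had 3, 2 and 1 reads in the controls and 27, 20 and 15 in ASO_LINC, a rate ratio of 15.0 with an exact Poisson interval from 6.52 to 42.4 that covers counting error only. It passed the filter on low counts through ASO_LINC alone, where it is high. So did *BCL2A1* with 6, 2 and 11 reads in the controls and *TNFSF13B* with 9, 7 and 12. *MMP9*, with 16, 5 and 17 reads in the controls, also needed the ASO_LINC libraries to pass. With at least 10 reads required in every library, 17 genes of the lists were called, 14 of them higher, and 917 over all genes. The main fit called 21 and 1106. The numbers tested under the stricter filter were not counted, so no share is given for it.

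**Figure D5:**
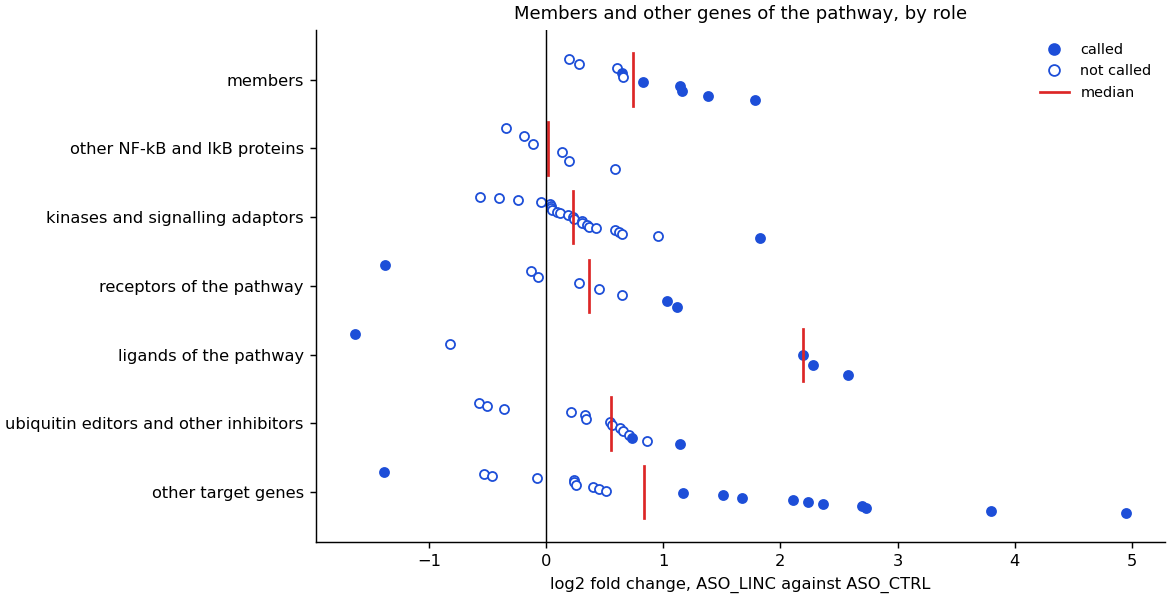
Log2 fold change (x axis) of the members and of the tested genes of each list of the pathway, with filled points for genes called, open points for genes not called and a red line for the median. The median is 0.75 for the members and 0.01 for the other NF-κB and IκB proteins. The point of *PLAU*, at 3.80, rests on at most 3 reads in each control library.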

How the data were processed

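Total RNA of H226 cells was reverse transcribed from dT oligos and sequenced as single reads of 75 bp. Per the labels and the study's methods, the authors used STAR for alignment, on hg19, and the deposited values are read counts by gene symbol that were not normalized. Which counting program, annotation and strand option produced them is not given in the sources used here, so for 5 of the 10 members reads of an overlapping gene on the other strand cannot be told apart. Rows of reads assigned to no gene, 4 in all, made up 24.8% to 28.1% of a library and were left out.

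Reads on genes per library ranged from 3686828 to 10546786. Counts were filtered with filterByExpr, scaled by TMM and compared with edgeR 4.0.16 (quasi-likelihood F-test) in R 4.3.3, with the thresholds of the study's methods. Changes of single libraries are differences of log2 CPM with a prior count of 2. No 2 libraries of a group agreed within sampling noise (chi-square per degree of freedom from 2.61 to 14.8). Positions, overlaps and GC content came from GENCODE lifted to GRCh37, and 86.2% of tested genes had a GC content. Names of the pathway lists were matched to older symbols for *CXCL8* and *OTULIN*. Of each list the text names every called gene, or the 6 with the smallest p where more were called, or without a call the 2 with the highest mean CPM, and says where other genes were added. The members, lists and tests were chosen with earlier results of these data known. Alternatives used DESeq2 1.42.0 and limma 3.58.1.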

Additional observations from a re-analysis of the deposited data

How the results depend on the processing

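All 10 members kept a positive log2 fold change under every alternative run, and *TNFAIP3* and *NFKBIE* kept their calls in all of them. Of the members 6 were called with DESeq2, limma-voom, other scalings, other filters, robust dispersion and the correction for GC content and length, 7 at an adjusted p below 0.05, where *RELB* passed, and 2 with glmTreat, which asks for a change beyond 0.5 in the test itself and ended the calls of *RELA*, *NFKB2*, *TRAF1* and *ICAM1*. Fits that left out 1 library called from 2 to 6 members, and 2 without ASO_CTRL replicate 2, ASO_CTRL replicate 3 or ASO_LINC replicate 1. Over all genes 2465 were called at an adjusted p below 0.05, 384 with glmTreat, 1733 after the correction for GC content and length (54.9% of them higher, against 65.1%), and from 359 to 2616 when 1 library was left out, the last without ASO_LINC replicate 3. The called genes of the pathway lists ranged from 14 to 31 in these fits. The difference between non-canonical and canonical medians ranged from 0.34 to 0.54, and that of the *RELB* to *RELA* ratio from -0.14 to 0.07, being 0.07, 0.04 and 0.03 without ASO_CTRL replicate 1, ASO_CTRL replicate 3 and ASO_LINC replicate 3. The cause was not tested.

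Libraries of the same replicate number had deviations from their group means that correlated at 0.06, -0.15 and -0.18. For libraries of different number the correlations ran from -0.14 to 0.19. With 3 libraries per group these values cannot decide whether the libraries were made in pairs. With the replicate number as a block, 656 genes and 5 members were called, *RELA* being lost at an adjusted p of 0.0281 from edgeR. *TRAF1* had 15 to 35 reads in the control libraries.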
